A study of Homo sapiens with 15 samples.

Results

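The HOX genes of the 4 human HOX clusters were followed across 9 lymphoid cell lines on 15 Affymetrix U133 Plus 2.0 arrays. A gene belonged to the set when its probe set carried a single platform symbol made of HOXA, HOXB, HOXC or HOXD and a number, and the probe set with the highest mean over the 15 arrays stood for the gene. This gave 28 of the 19735 genes measured, through 44 probe sets: 10 HOXB genes, 9 HOXC genes, 8 HOXD genes and HOXA2, which was the only HOXA gene analysed here. The rest of the HOXA cluster is not covered, so counts of HOX genes given here do not speak for it. The label classical Hodgkin lymphoma is given to L540 and L540Cy, HDLM2, KM-H2, L1236 and L428. Reh is labelled acute lymphoblastic leukaemia of the B lineage, SU-DHL-4 non-Hodgkin lymphoma of B cells and Namalwa Burkitt lymphoma, and no line is given a treatment. From background, L428, L1236 and KM-H2 derive from B cells, HDLM2 and L540 from T cells, and L540Cy is a subline of L540. Each line goes back to 1 tumour and has grown in culture, so a difference between lines is a difference between single clones. L428, L1236, KM-H2, HDLM2, Reh and Namalwa had 2 arrays each, described in the series design as biological duplicates, and L540, L540Cy and SU-DHL-4 had 1. L540 and L540Cy were averaged wherever a line of origin was the unit, which left 5 Hodgkin and 3 non-Hodgkin lines of origin.

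HOX proteins are transcription factors that give cells along the body axis, and blood cells along their differentiation, a positional or stage identity. The genes stand in rows of paralogues numbered from the 3′ to the 5′ end of each cluster, they bind DNA with TALE partners such as the PBX and MEIS proteins, and they are held silent by Polycomb complexes and kept open by Trithorax complexes. In normal blood formation HOXA and HOXB genes are active in stem and progenitor cells and fade with maturation, HOXC genes are known in lymphoid cells, and most HOXD genes are largely silent.

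Before the results, 2 arrays stood apart. In 22 genes that marked SU-DHL-4, the array labelled Reh replicate 1 was higher than its duplicate, with a median difference of 4.0 log2. Whether that array holds RNA of both lines was not tested, and every Reh mean given here includes it unless stated. Among HOX genes, 4 were over 1 log2 higher in SU-DHL-4 than in Reh replicate 2, and in 2 of these Reh replicate 1 was the higher Reh array by over 0.5 log2: HOXB3 (6.24 against 4.67) and HOXB7 (6.85 against 6.04). Namalwa replicate 2 had an upper quartile of 7.31 log2 against 7.54 to 7.72 in the other arrays. It was over 0.5 log2 above Namalwa replicate 1 in 8 of 28 HOX genes, with HOXC12 at 6.84 against 4.58. HDLM2 replicate 2 was over 0.5 log2 above its duplicate in 7 of 28, and in the other 4 duplicated lines 0 to 2 were. The labels were checked against markers: TNFRSF8, the CD30 receptor of Hodgkin cells, stood at 9.61 to 12.70 log2 in the 5 Hodgkin lines of origin and at 5.71 to 6.51 in the others. Of 7 T cell markers, 2 were at least 2 log2 above their median over lines in HDLM2, 1 in L540 and 1 in KM-H2. CD247, a chain of the T cell receptor complex, stood at 10.19 in HDLM2, 10.35 in L540 and 8.73 in SU-DHL-4, and CD3E, another chain of it, lay between 5.04 and 5.76 in every line. Of 5 B cell markers, 0 were that high in any Hodgkin line, including the B cell derived ones, while 5 were in Reh, 4 in Namalwa and 3 in SU-DHL-4. CD79A, a chain of the B cell receptor, lay at 5.81 to 6.12 in the Hodgkin lines and 11.97 to 12.72 in the others, and EBF1, a B cell factor, was at 8.83 in HDLM2 and 5.29 in L1236. PAX5, another B cell factor, was at 10.81 in L1236, against 10.78 in SU-DHL-4, and at 5.60 to 7.21 in the other Hodgkin lines. As a list, the B cell markers therefore do not separate the B from the T cell derived Hodgkin lines, though L1236 held PAX5 at the level of a B cell line. The stromal gene DCN was at 9.92 in SU-DHL-4, and CD14 of monocytes and CD3D of T cells were at 7.96 and 8.60 in KM-H2. The part of these markers in the HOX values was not tested.

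In the HOXD cluster neighbouring genes were high in different lines, so the 250 bases before the start of 6 of its genes are shown. They come from the RefSeq promoter table (build GRCh38.p14, plus strand), which held an entry for 11 of the 28 HOX genes. In the order of the chromosome the windows are HOXD13 at chr2:176092471-176092720, HOXD12 at chr2:176099545-176099794, HOXD11 at chr2:176107030-176107279, HOXD10 at chr2:176116528-176116777, HOXD8 at chr2:176129455-176129704 and HOXD4 at chr2:176151300-176151549. Capitals mark matches, on either strand, to TATAAA or to TGATNNAT, the composite site of a PBX and a HOX protein.
HOXD13: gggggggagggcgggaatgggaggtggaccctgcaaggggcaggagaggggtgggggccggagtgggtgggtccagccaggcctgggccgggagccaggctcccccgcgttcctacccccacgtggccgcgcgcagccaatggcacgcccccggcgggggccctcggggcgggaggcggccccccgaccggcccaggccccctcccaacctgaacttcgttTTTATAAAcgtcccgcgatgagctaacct
HOXD12: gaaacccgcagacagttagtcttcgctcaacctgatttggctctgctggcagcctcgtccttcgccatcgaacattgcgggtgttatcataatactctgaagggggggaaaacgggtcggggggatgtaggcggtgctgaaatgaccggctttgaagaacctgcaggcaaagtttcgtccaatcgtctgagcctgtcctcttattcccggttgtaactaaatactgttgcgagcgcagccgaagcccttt
HOXD11: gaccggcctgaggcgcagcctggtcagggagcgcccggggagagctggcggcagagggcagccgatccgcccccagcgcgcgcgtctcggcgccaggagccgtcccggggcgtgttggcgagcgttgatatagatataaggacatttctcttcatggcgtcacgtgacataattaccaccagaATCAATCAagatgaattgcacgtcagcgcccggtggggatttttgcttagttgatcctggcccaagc
HOXD10: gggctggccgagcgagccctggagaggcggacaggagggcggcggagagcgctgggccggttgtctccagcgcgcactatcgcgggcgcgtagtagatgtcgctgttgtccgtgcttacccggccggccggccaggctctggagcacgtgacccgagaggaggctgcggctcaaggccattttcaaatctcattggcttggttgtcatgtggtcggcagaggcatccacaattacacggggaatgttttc
HOXD8: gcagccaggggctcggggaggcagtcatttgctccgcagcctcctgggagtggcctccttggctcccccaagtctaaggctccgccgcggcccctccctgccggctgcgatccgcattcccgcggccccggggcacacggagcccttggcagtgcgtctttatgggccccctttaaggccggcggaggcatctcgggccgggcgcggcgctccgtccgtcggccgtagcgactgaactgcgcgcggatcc
HOXD4: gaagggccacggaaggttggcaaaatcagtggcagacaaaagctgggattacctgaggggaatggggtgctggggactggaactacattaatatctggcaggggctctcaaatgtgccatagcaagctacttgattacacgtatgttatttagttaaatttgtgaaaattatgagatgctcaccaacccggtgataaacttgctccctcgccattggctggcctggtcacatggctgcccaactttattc
HOXD11 held 1 match to TGATNNAT, which 6.47% of 35116 RefSeq windows of this length hold. HOXD13 held TATAAA on both strands, as 2 overlapping matches, and 10.7% of windows hold that motif. The windows of HOXD4, HOXD8, HOXD10 and HOXD12 held neither. HOXD4 had 4 CG dinucleotides, against 28 in HOXD8, 23 in HOXD10, 23 in HOXD11, 16 in HOXD12, 21 in HOXD13 and a median of 11 over all windows. These matches describe letters in the windows and no binding was measured.

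HOX genes varied widely from line to line. The log2 signal of a HOX gene spanned a median of 2.29 between its lowest and highest line of origin, against 1.02 over all genes. A span of at least 2 log2 was found in 16 of 28 HOX genes (57.1%) and in 24.4% of all genes, and 7 HOX genes spanned under 1 log2. In an F test of limma over the 9 lines, 20 of 28 HOX genes (71.4%) had an adjusted p under 0.05, against 52% of all genes, and a gene past this threshold is said here to be called. The 8 that were not called were HOXA2, HOXB1, HOXB5, HOXC8, HOXC12, HOXD1, HOXD9 and HOXD12. These p-values measure the spread between duplicates of a line, with lines of 1 array assumed to vary like the others. Values near 4 to 6 log2 cannot be told from background on these arrays, because no detection call was used, and a difference against lines in that range is one against an unresolved level.

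A gene was described as raised in a line when the line's mean lay at least 2 log2 above the gene's median over the 8 lines of origin. By this measure 9 of 28 HOX genes (32.1%) were raised in some line, against 10.8% of all genes. Of 224 pairs of a HOX gene and a line, 12 were raised, all of them in Hodgkin lines and 0 in Reh, Namalwa or SU-DHL-4. With Namalwa replicate 2 alone for Namalwa there were 13, of which 1 was in a non-Hodgkin line: HOXC12 in Namalwa, 2.25 log2 above its median. HOXC genes made up 7 of the 12, HOXD genes 4 and HOXB genes 1. L1236 held 4 (HOXC6, HOXD4, HOXD11 and HOXD13), against 2.38% of all genes raised there, and KM-H2 3 (HOXC6, HOXC9 and HOXC13), against 2.54%. HDLM2 held 3 (HOXC6, HOXC9 and HOXC10), against 2.48%, L428 held 1 (HOXD8), against 1.99%, and L540 held 1 (HOXB2), against 1.53%. In Reh, Namalwa and SU-DHL-4, where no HOX gene was raised, 2.15%, 1.34% and 1.78% of all genes were. At least 2 log2 below the median lay 6 pairs. These were HOXB3, HOXB7 and HOXB9 in Reh (1.35% of all genes), HOXB9 in Namalwa (1.71%) and in SU-DHL-4 (2.46%), and HOXB7 in KM-H2 (0.882%). No HOX gene lay so low in L428, L1236, HDLM2 or L540, against 0.826%, 0.75%, 0.831% and 1.41% of all genes.

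**Figure D1:**
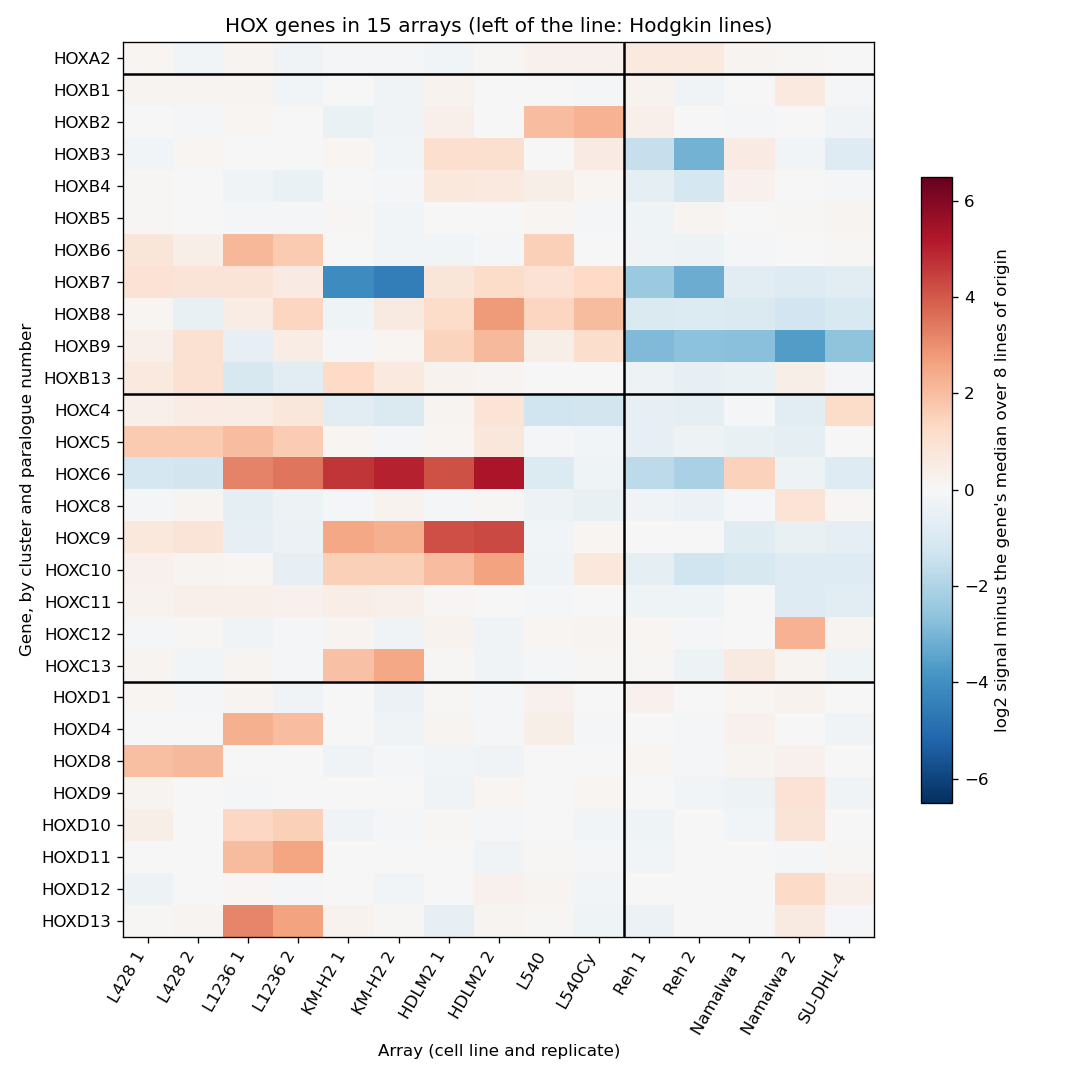
Each row is a HOX gene and each column 1 of the 15 arrays, and the colour is the log2 signal minus the gene's median over the 8 lines of origin, with red for higher and blue for lower. HOXC6 is raised in L1236, KM-H2 and HDLM2, HOXB9 is low in every array of Reh, Namalwa and SU-DHL-4, and HOXB7 is low in both arrays of KM-H2.

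The first comparison asked which HOX genes separate the Hodgkin from the non-Hodgkin lines. HOXB9, a gene of the 5′ side of the HOXB cluster, was the one HOX gene called, and it was higher in the Hodgkin lines. Its log2 signal was 8.63 and 9.29 in the arrays of L428, 7.80 and 8.77 in L1236, 8.20 and 8.46 in KM-H2, 9.74 and 10.40 in HDLM2, 8.71 in L540 and 9.44 in L540Cy. It was 5.45 and 5.63 in Reh, 5.57 and 4.69 in Namalwa and 5.71 in SU-DHL-4. All 10 Hodgkin arrays therefore lay above all 5 others, and the groups did not overlap. In L428, L1236, KM-H2, HDLM2 and Reh the second array was the higher, and in Namalwa the first. The non-Hodgkin values lie in the range that cannot be told from background, so no fold is given. The means were 8.94 ± 0.72 (SD, n = 5 lines) and 5.46 ± 0.30 (SD, n = 3 lines), a difference of 3.48 ± 0.41 log2 (SE, limma, two-sided, adjusted p = 0.0117). With Namalwa left out it was 3.32 log2 (adjusted p = 0.0528), the one setting of 21 that ended the call, and the adjusted p over all settings ran from 0.000164 to 0.0528. Without Reh replicate 1 the difference was 3.45 log2 (adjusted p = 0.0135), and without Namalwa replicate 2 it was 3.34 (adjusted p = 0.0122). The second HOXB9 probe set followed the first over the 8 lines of origin (Pearson r = 0.98) and spanned 4.06 log2.

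In this comparison 1 of 28 HOX genes was called higher, against 0.76% of all genes, and 0 were called lower, against 0.598%. An unadjusted p under 0.05 was reached by 4 HOX genes of 28, and by 14.2% of all genes. In 4 HOX genes, 14.3% of the set, all 5 Hodgkin lines lay above all 3 others, against 5.18% of all genes, and in 0 they lay below, against 5.48%. Besides HOXB9 these were HOXB8, HOXC10 and HOXC11, which were not called. For HOXB8 the means of L428 (5.15) and KM-H2 (5.50) and the non-Hodgkin means lie in the range that cannot be told from background. The same holds for HOXC10 in L1236 (5.63) and the non-Hodgkin lines, so the separation of these lines is not resolved in either gene. For HOXC11 single arrays overlapped, with Namalwa replicate 1 at 6.51 and L540 at 6.49. Namalwa replicate 2 (5.71) and SU-DHL-4 (5.85) lay in the background range, so the HOXC11 separation holds for line means only. HOXB8 differed by 1.92 ± 0.51 log2 (SE, adjusted p = 0.149), HOXC10 by 1.74 ± 0.58 (SE, adjusted p = 0.241) and HOXC11 by 0.66 ± 0.15 (SE, adjusted p = 0.0875). The second HOXB8 probe set spanned only 0.49 log2 over the lines, so the difference rests on 1 probe set. Of 28 HOX genes, 20 had a positive difference and 8 a negative one, with a median of 0.44 log2 against -0.02 over all genes.

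The second comparison set the T cell derived Hodgkin lines, HDLM2 and L540, against the B cell derived L428, L1236 and KM-H2. No HOX gene was called higher or lower (0 of 28 each way by limma, against 0.147% and 0.0507% of all genes), and 3 of 28 had an unadjusted p under 0.05, against 7.49% of all genes. HOXB8 stood at 7.18 against 5.64 log2, a difference of 1.54 ± 0.32 (SE, adjusted p = 0.248). HOXB9 stood at 9.57 against 8.52 log2, a difference of 1.04 ± 0.37 (SE, adjusted p = 0.566). The median difference of the HOX genes was 0.02 log2, against 0.04 over all genes. Leaving out L1236 brought 1 HOX gene, HOXB8, past the threshold, and leaving out HDLM2 brought 1, HOXB2. Without HDLM2 the T cell derived side is L540 alone, so that call rests on 1 line, in which HOXB2 is high.

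To place each gene, each of the 8 lines of origin was contrasted with the average of the remaining 7 in the fit of all 15 arrays. HDLM2 and L1236 had the most HOX genes called higher, 9 of 28 each, against 14% and 14.4% of all genes. Reh had the most called lower, 10 of 28, against 10.8% of all genes. In L428, 5 were higher and 1 lower, against 12% and 11.7% of all genes. In KM-H2, 5 were higher and 6 lower, against 15.2% and 12.9%. In L540, 5 were higher and 4 lower, against 11.8% and 13.8%. In Namalwa, 0 were higher and 6 lower, against 11.3% and 16.6%, and in SU-DHL-4, 1 was higher and 4 lower, against 8.01% and 9.74%. Lower calls numbered 2 in L1236 and 3 in HDLM2, against 10.6% and 13%, and HOXA2 alone was higher in Reh, against 11%. Because the mean of the other 7 moves with a line that is very high, a lower call in 1 line can reflect a high value in another. In the same way a higher call can reflect a very low value in another line. HOXB7 in L428, for example, was 1.71 log2 above the mean of the other 7 and 0.89 above its median over lines. Without Namalwa replicate 1, and so with replicate 2 alone, HOXB1, HOXC8, HOXC12, HOXD9, HOXD10 and HOXD12 were called higher in Namalwa. These calls rest on 1 array of that line, and the share of all genes called in this setting was not counted. Leaving out Reh replicate 1 instead, HOXB3 was called higher in Namalwa. Without L428 replicate 2 the higher calls in L428 numbered 3 (HOXB7, HOXC5 and HOXD8). Without L540Cy those in L540 also numbered 3, and without either Reh array HOXA2 was not called in Reh.

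In the HOXB cluster HOXB7 was called higher in 4 of the 5 Hodgkin lines and lower in KM-H2 and Reh. It stood at 10.17 log2 in L428, 9.95 in L1236, 10.27 in HDLM2 and 10.41 in L540, and at 8.53 in Namalwa, 8.62 in SU-DHL-4 and 6.44 in Reh. KM-H2 had 5.18 and 4.79 in its arrays, the lowest of all lines and far from the other Hodgkin lines. The KM-H2 mean was -4.21 ± 0.20 log2 from that of the other 7 (SE, adjusted p = 3.51e-07), and Reh was -2.55 ± 0.20 from it (SE, adjusted p = 1.39e-05). The 2 other HOXB7 probe sets followed the one used (Pearson r of 0.99 and 0.95 over 8 lines), with KM-H2 at 5.42 and 6.53 log2, and in the second of them Reh was lower, at 6.40. HOXB8, the next gene along the cluster, was called higher in HDLM2 (7.30 log2, 2.02 ± 0.38 above the others, SE, adjusted p = 0.00276) and in L540 (7.05, 1.73 ± 0.38 above, SE, adjusted p = 0.00724). Its arrays in HDLM2 differed, at 6.53 and 8.08, and without the second the difference was 1.25 (adjusted p = 0.0631). Without L540Cy the L540 difference was 1.42 (adjusted p = 0.107). With the mean of both HOXB8 probe sets the differences were 0.98 in HDLM2 and 0.94 in L540. HOXB9 was called higher in HDLM2, L540 and L428 and lower in all 3 non-Hodgkin lines. The L540 call ended without L540Cy (adjusted p = 0.0662) and the L428 call without L428 replicate 2 (adjusted p = 0.107).

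At the 3′ side of the cluster HOXB2 was raised in L540. Its log2 signal was 6.97 in L540 and 7.24 in L540Cy, against 4.94 and 4.84 in L428, 5.08 and 4.96 in L1236, 4.53 and 4.76 in KM-H2 and 5.29 and 5.0 in HDLM2. Reh had 5.30 and 4.94, Namalwa 4.84 and 5.0 and SU-DHL-4 4.73. Both arrays of the L540 lineage thus lay above all 13 others, by 2.18 ± 0.14 log2 over the mean of the other 7 lines (SE, adjusted p = 2.2e-06). HOXB-AS1, the noncoding gene next to HOXB2 in the RefSeq table (GRCh38.p14), was chosen after its values were seen. It was also highest in L540, at 6.06 log2 and 1.08 ± 0.19 above the others (SE, adjusted p = 0.00194). HOXB3 and HOXB4, the latter a factor that expands blood stem cells in culture, ran together over the lines (Pearson r = 0.92 over 8 lines, which share arrays and normalization). Both were highest in HDLM2, at 8.78 and 9.12 log2, and lowest in Reh, at 5.46 and 7.59. The HDLM2 excess was 1.43 ± 0.32 log2 for HOXB3 (SE, adjusted p = 0.00742) and 0.80 ± 0.15 for HOXB4 (SE, adjusted p = 0.00253), and the HOXB3 call ended without either HDLM2 array (adjusted p = 0.0729 and 0.0668). Reh was -2.37 ± 0.32 from the others for HOXB3 (SE, adjusted p = 0.000447) and -3.16 without Reh replicate 1. The second HOXB3 probe set spanned 0.56 log2, and with the mean of both sets the Reh difference was -1.18 and the HDLM2 difference 0.91.

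HOXB6 was highest in L1236, at 6.75 and 6.28 log2, 1.82 ± 0.15 above the others (SE, adjusted p = 1.79e-05) and 0.97 with the mean of its probe sets. It was also the one HOX gene called between L540Cy and L540, as described further on. HOXB13, the gene at the far 5′ end of the cluster, was highest in KM-H2 (7.25 log2) and L428 (7.11) and lowest in L1236 (5.43). These were 1.01, 0.85 and -1.06 log2 from the others (adjusted p = 0.00784, 0.0223 and 0.00701). The calls ended without KM-H2 replicate 1 (adjusted p = 0.164), without either L428 array (0.0703 and 0.285) and without L1236 replicate 1 (0.121). Its second probe set followed the first (Pearson r = 0.92). HOXB1 and HOXB5 spanned 0.48 and 0.28 log2 over the lines and were called in none.

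**Figure D2:**
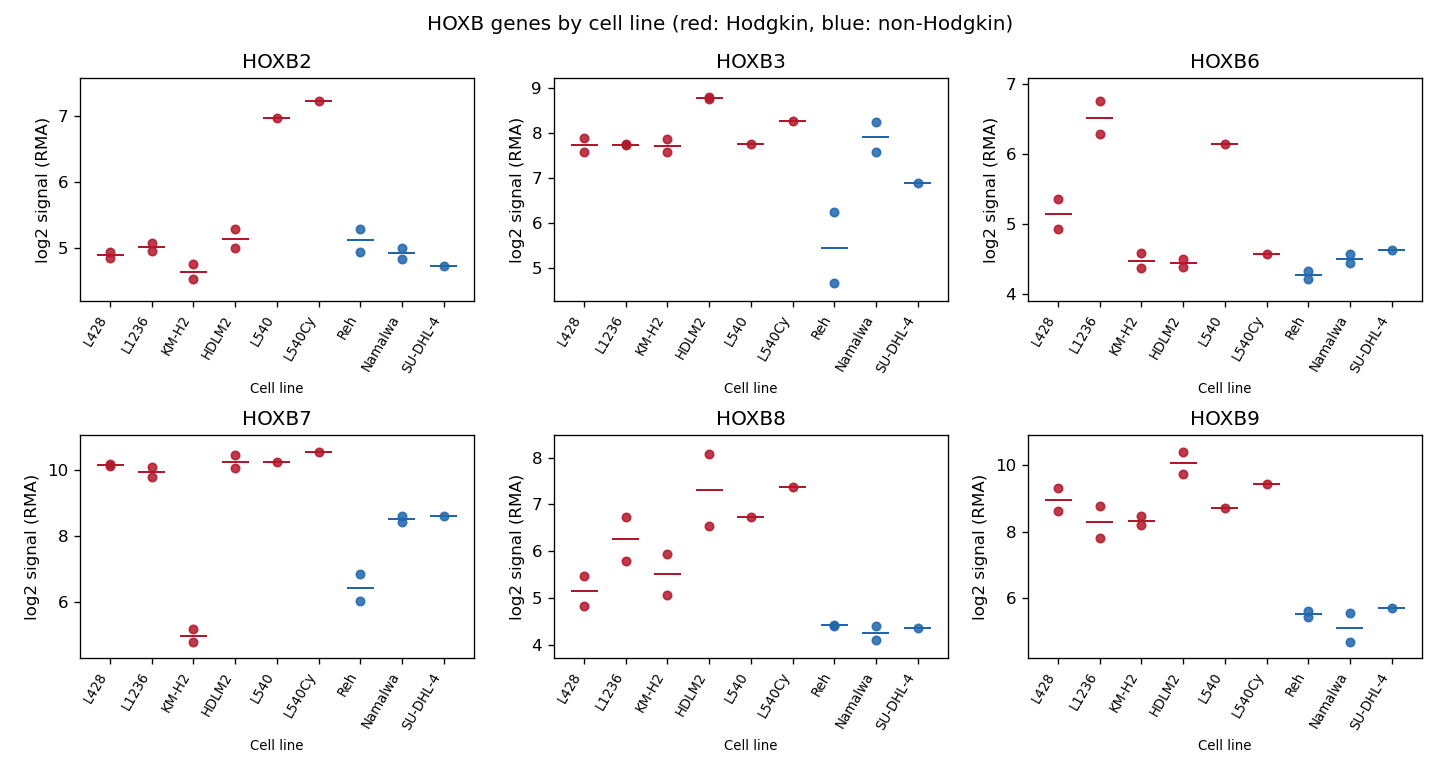
Points are the log2 RMA signals of single arrays for HOXB2, HOXB3, HOXB6, HOXB7, HOXB8 and HOXB9 in each cell line, bars are line means, and red marks Hodgkin and blue non-Hodgkin lines. HOXB9 is at 7.80 or more in all Hodgkin arrays and at 5.71 or less in the others, HOXB7 is low in KM-H2, and HOXB2 is high only in L540 and L540Cy among these lines.

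In the HOXC cluster HOXC6 had the widest span of all HOX genes, 6.73 log2. Its signal was 10.87 and 11.24 in KM-H2, 10.38 and 11.52 in HDLM2 and 9.45 and 9.70 in L1236, but 5.08 and 5.02 in L428, 5.35 in L540 and 5.94 in L540Cy. It was 4.54 and 4.12 in Reh, 7.73 and 5.88 in Namalwa and 5.38 in SU-DHL-4. The 6 arrays of KM-H2, HDLM2 and L1236 thus lay above the other 9, and L428 and L540 lay among the non-Hodgkin lines. KM-H2 was 4.24 ± 0.40 log2 above the mean of the other 7 (SE, adjusted p = 3.61e-05), HDLM2 4.11 ± 0.40 (SE, adjusted p = 4.28e-05) and L1236 2.54 ± 0.40 (SE, adjusted p = 0.00117). Reh had the lowest mean, at -3.45 ± 0.40 from the others (SE, adjusted p = 0.00018). Reh, L428, L540 and SU-DHL-4 lie in the range that cannot be told from background and have no order among them. Between the groups HOXC6 was not called (adjusted p = 0.472).

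HOXC9 and HOXC10, neighbours in the cluster, followed each other over the lines (Pearson r = 0.95, 8 lines) and were highest in HDLM2 and then KM-H2. HOXC9 had 8.95 and 9.02 log2 in HDLM2, 7.27 and 7.06 in KM-H2, 5.43 and 5.57 in L428, 4.19 and 4.37 in L1236, 4.56 in L540 and 4.88 in L540Cy. It had 4.74 and 4.75 in Reh, 3.96 and 4.23 in Namalwa and 4.08 in SU-DHL-4. HDLM2 lay above KM-H2 without overlap, and KM-H2 above all others. Those others, L428 among them, lie in the range that cannot be told from background and have no order among them. HDLM2 exceeded the others by 4.04 ± 0.12 log2 (SE, adjusted p = 1.65e-08) and KM-H2 by 1.96 ± 0.12 (SE, adjusted p = 1.67e-06). HOXC10 had 7.86 and 8.48 log2 in HDLM2, 7.39 and 7.40 in KM-H2, 6.14 and 6.02 in L428, 5.97 and 5.30 in L1236, 5.60 in L540 and 6.53 in L540Cy. It had 5.21 and 4.56 in Reh, 4.80 and 5.0 in Namalwa and 5.0 in SU-DHL-4. All Hodgkin arrays were above all non-Hodgkin arrays, with the narrowest gap between L1236 replicate 2 and Reh replicate 1. The arrays of L1236 and L540 and those of the non-Hodgkin lines lie in the range that cannot be told from background. Their order is therefore not resolved. HDLM2 exceeded the others by 2.46 ± 0.22 log2 (SE, adjusted p = 2.32e-05) and KM-H2 by 1.58 ± 0.22 (SE, adjusted p = 0.00044).

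HOXC13, the gene at the 5′ end of the cluster and known from hair and nail, was raised in KM-H2. It had 6.43 and 7.04 log2 there, against 4.72 and 4.38 in L428, 4.74 and 4.40 in L1236, 4.61 and 4.32 in HDLM2, 4.45 in L540 and 4.60 in L540Cy. Reh had 4.61 and 4.23, Namalwa 5.10 and 4.70 and SU-DHL-4 4.28. The KM-H2 arrays lay above all 13 others, by 2.21 ± 0.20 log2 over the mean of the other 7 (SE, adjusted p = 2.31e-05). KM-H2 thus held high values of HOXC6, HOXC9, HOXC10 and HOXC13 together with the lowest HOXB7.

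HOXC4 and HOXC5, at the 3′ side, had other patterns. HOXC5 was highest in L1236, at 8.68 and 8.33 log2, and in L428, at 8.41 and 8.40, with every other array at 7.42 or below. The excess was 1.68 ± 0.16 log2 in L1236 (SE, adjusted p = 5.09e-05) and 1.56 ± 0.16 in L428 (SE, adjusted p = 8.95e-05). HOXC4, known from lymphoid cells, was highest in SU-DHL-4 (9.39 log2, 1.39 ± 0.26 above the others, SE, adjusted p = 0.00519) and lowest in L540 (6.99, -1.36 ± 0.20 from them, SE, adjusted p = 0.000586). It was the one HOX gene called higher in SU-DHL-4. HOXC4 was also called higher in L1236 (0.75 log2), a call that ended without either L1236 array (adjusted p = 0.0779 and 0.203). It was called higher in HDLM2 (0.64 log2) too, which ended without HDLM2 replicate 2 (0.29 log2, adjusted p = 0.482), either L428 array, L1236 replicate 1 or KM-H2 replicate 2 (adjusted p = 0.0522 to 0.0599). HOXC8, HOXC11 and HOXC12 were called higher in no line. HOXC12 spanned 1.29 log2, with the highest line mean in Namalwa, where replicate 2 stood apart.

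**Figure D3:**
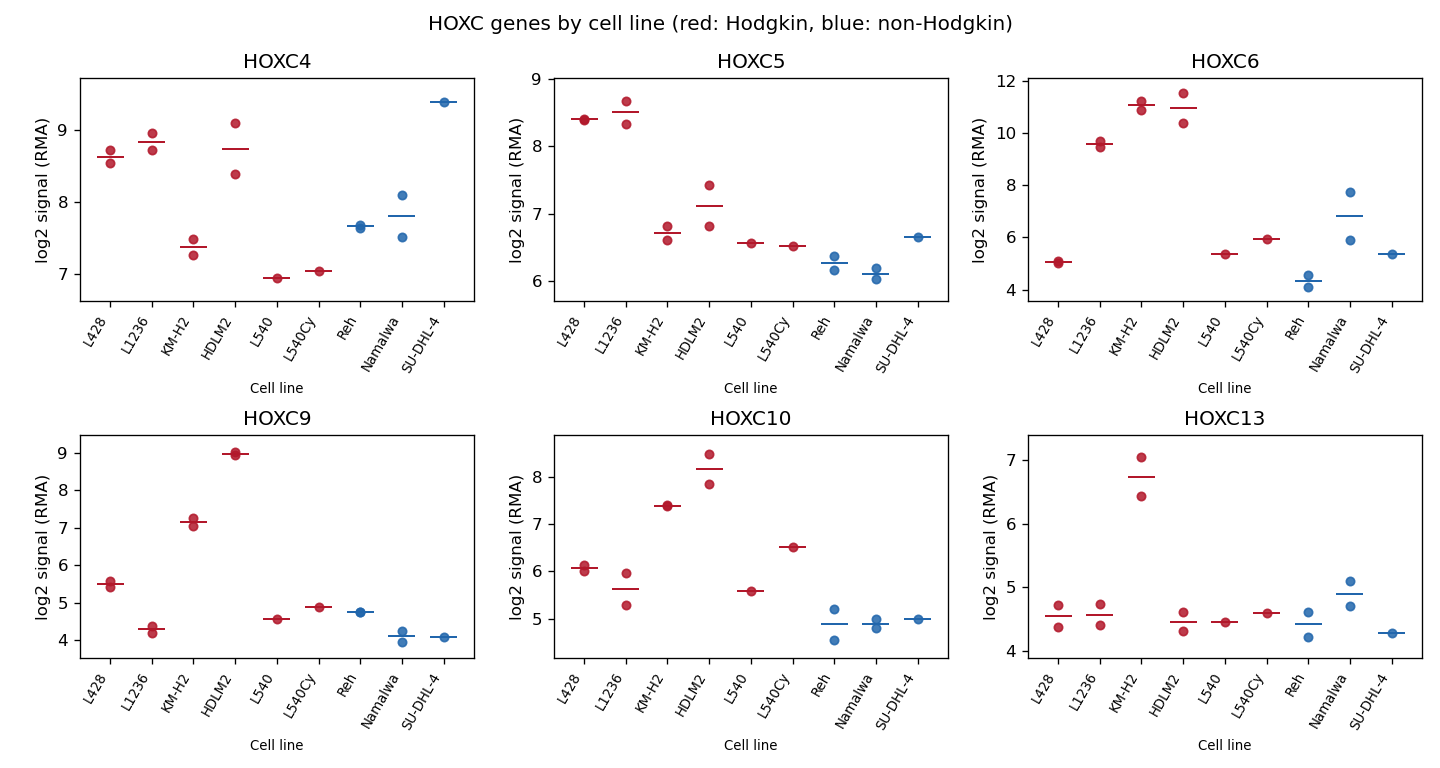
Points are the log2 RMA signals of single arrays for HOXC4, HOXC5, HOXC6, HOXC9, HOXC10 and HOXC13 in each cell line, with line means as bars, red for Hodgkin and blue for non-Hodgkin lines. HOXC6 is highest in KM-H2, HDLM2 and L1236, HOXC9 and HOXC10 in HDLM2 and KM-H2, HOXC5 in L428 and L1236, and HOXC13 in KM-H2.

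In the HOXD cluster, high values were found in L1236 and L428. L1236 was called higher in HOXD4, HOXD10, HOXD11 and HOXD13, whose start regions are shown above, and the HOXD12 gene between the last pair was called in no line. HOXD13, a gene of digit formation in the limb, had 8.42 and 7.87 log2 in L1236. It had 5.36 and 5.43 in L428, 5.48 and 5.35 in KM-H2, 4.73 and 5.47 in HDLM2, 5.32 in L540, 4.98 in L540Cy, 4.87 and 5.22 in Reh, 5.24 and 5.87 in Namalwa and 5.14 in SU-DHL-4. The L1236 arrays lay above all 13 others, by 2.89 ± 0.23 log2 over the mean of the other 7 (SE, adjusted p = 1.1e-05).

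HOXD11 had 6.82 and 7.32 log2 in L1236. It had 4.79 and 4.76 in L428, 4.79 and 4.77 in KM-H2, 4.74 and 4.53 in HDLM2, 4.81 in L540, 4.64 in L540Cy, 4.57 and 4.74 in Reh, 4.79 and 4.69 in Namalwa and 4.81 in SU-DHL-4. L1236 alone stood out, by 2.34 ± 0.14 log2 (SE, adjusted p = 1.48e-06). HOXD4 had 7.12 and 6.81 log2 in L1236. It had 4.84 and 4.79 in L428, 4.83 and 4.57 in KM-H2, 4.98 and 4.69 in HDLM2, 5.21 in L540, 4.72 in L540Cy, 4.86 and 4.69 in Reh, 5.11 and 4.83 in Namalwa and 4.61 in SU-DHL-4. On this probe set again only L1236 was apart from the other lines, by 2.15 ± 0.14 log2 (SE, adjusted p = 3.12e-06). The second HOXD4 probe set spanned 1.27 log2, with L1236 at 5.44 and 5.91 and Namalwa replicate 2 at 5.41. Over the alternatives the smallest HOXD4 excess in L1236 was 1.60 log2. HOXD10 was at 5.68 and 5.84 log2 in L1236, 1.43 ± 0.22 above the others (SE, adjusted p = 0.000893), with Namalwa replicate 2 next at 5.14. Another HOXD10 probe set was at 7.05 in L1236 and 4.26 or less in the other lines, and its L1236 excess was 2.94 log2. In the third HOXD10 probe set L1236 did not stand apart. It had 5.10 and 5.06 in L1236 and 5.93 in Namalwa replicate 2, with line means of 5.08 and 4.96. The other HOXD13 probe sets were also highest in L1236, at 7.45 and 6.13 log2.

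HOXD8 was raised in L428 and not in L1236. It had 6.37 and 6.56 log2 in L428, 4.40 and 4.39 in L1236, 4.20 and 4.29 in KM-H2, 4.26 and 4.21 in HDLM2, 4.41 in L540 and 4.44 in L540Cy. Reh had 4.58 and 4.33, Namalwa 4.61 and 4.71 and SU-DHL-4 4.48. L428 exceeded the others by 2.05 ± 0.11 log2 (SE, adjusted p = 9.45e-07). For HOXD9, its neighbour, the 2 probe sets disagreed. The set with the higher mean spanned 0.53 log2 and was called in no line, while the other stood at 6.16 log2 in L428 and at 5.18 or less in the other lines. HOXD1 and HOXD12 spanned 0.35 and 0.82 log2 and were called in no line, and HOXD12 was highest in Namalwa replicate 2, at 5.12.

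**Figure D4:**
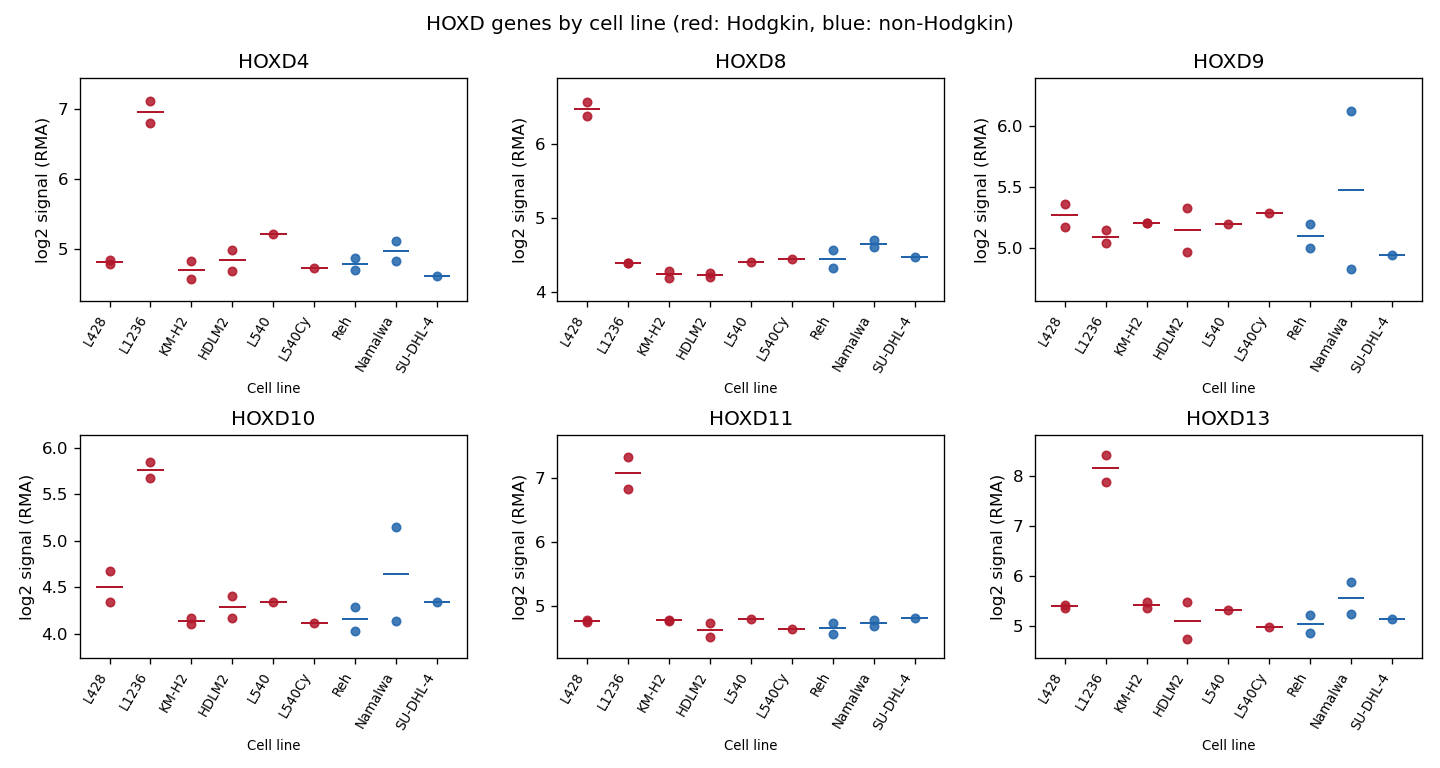
Points are the log2 RMA signals of single arrays for HOXD4, HOXD8, HOXD9, HOXD10, HOXD11 and HOXD13 in each cell line, with line means as bars, red for Hodgkin and blue for non-Hodgkin lines. L1236 is highest in HOXD4, HOXD10, HOXD11 and HOXD13, L428 in HOXD8, and Namalwa replicate 2 lies above the other arrays in HOXD9.

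Read by paralogue number, some members of a row were highest in the same line and others in different lines. Of the paralogues numbered 13, HOXB13 was highest in KM-H2 and L428, HOXC13 in KM-H2 and HOXD13 in L1236. Of those numbered 10, HOXC10 was highest in HDLM2 and HOXD10 in L1236. Of those numbered 9, HOXB9 and HOXC9 were both highest in HDLM2 and HOXD9, called in no line, in Namalwa. HOXB1 and HOXD1, and HOXC12 and HOXD12, had their highest line means in Namalwa, none of them called there. For HOXB1, HOXC12 and HOXD12 this came from replicate 2 (6.24, 6.84 and 5.12 log2, against 5.62, 4.58 and 3.89 in replicate 1). HOXD1 was at 5.11 in Namalwa and 5.10 in Reh. The second probe sets of HOXB1 and HOXD1 were highest in SU-DHL-4 and KM-H2. Paralogues numbered 5, 8 and 11 were also highest in different lines. Of those numbered 6, HOXB6 was highest in L1236 and HOXC6 in KM-H2, and of those numbered 4, HOXB4 was highest in HDLM2, HOXC4 in SU-DHL-4 and HOXD4 in L1236. HOXA2, the paralogue of HOXB2, was highest in Reh at 4.39 and 4.41 log2, 0.60 ± 0.14 above the others (SE, adjusted p = 0.0125), while HOXB2 was highest in L540. The HOXA2 call ended without either Reh array (adjusted p = 0.0582 and 0.0829), and its values are in the range that cannot be told from background.

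Over the 16 HOX genes that spanned at least 2 log2, Pearson r over the 8 lines of origin is given as a description, since all points share 1 normalization and each line weighs heavily. Pairs of the same cluster had a median r of 0.41 (36 pairs, 5 over 0.8) and pairs of different clusters 0.13 (84 pairs, 4 over 0.8). HOXD4, HOXD11 and HOXD13 had r of 0.98 to 0.99 with one another, and HOXB8 with HOXB9 had 0.88. Across clusters, HOXB6 had r of 0.86 to 0.89 with HOXD4, HOXD11 and HOXD13, all high in L1236, and HOXB9 had 0.83 with HOXC10. HOXB7 and HOXC13 had r of -0.71, where KM-H2 was the low point of one and the high point of the other.

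The subline L540Cy was then set against L540, with 1 array each and the spread taken from the duplicated lines. HOXB6 was at 4.57 log2 in L540Cy and 6.14 in L540, a difference of -1.57 ± 0.28 (SE, adjusted p = 0.0287). It was the one HOX gene called lower, against 0.846% of all genes, and 0 of 28 were called higher by limma, against 0.644%. Of the 28 HOX genes, 22 differed by under 0.5 log2. The HOXB6 call ended with the mean of its 2 probe sets (-0.82 log2, adjusted p = 0.071), and the other set spanned 0.21 log2 over the lines. It also ended at an adjusted p of 0.05 when either KM-H2 array was left out. The next largest difference was that of HOXC10, at 6.53 log2 in L540Cy and 5.60 in L540 (0.93 ± 0.41, SE, adjusted p = 0.426).

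The partners and regulators of HOX genes were read from a list of 51 genes, of which 45 were measured: TALE cofactors, caudal factors, Trithorax and Polycomb genes, demethylases, other regulators and noncoding neighbours of the clusters. Between Hodgkin and non-Hodgkin lines 0 of 45 were called by limma in either direction, against 1.36% of all genes, and 6 of 45 had an unadjusted p under 0.05, against 14.2% of all genes. Their median difference was -0.05 log2 and their median span over lines 1.36 log2. In the F test over the lines 25 of 45 (55.6%) were called, against 52% of all genes, and 8 (17.8%) spanned at least 2 log2, against 24.4%.

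MEIS1, a TALE cofactor that binds DNA with HOX and PBX proteins, had the widest span, 4.59 log2. It had 8.01 and 7.90 log2 in L428, 8.77 and 8.18 in L1236 and 8.69 and 8.56 in KM-H2, but 3.86 and 4.22 in HDLM2, 4.83 in L540 and 4.93 in L540Cy. It had 5.41 and 3.71 in Reh, 5.59 and 5.39 in Namalwa and 6.60 in SU-DHL-4. The 6 arrays of the B cell derived Hodgkin lines lay above all 9 others. Between the T and B cell derived Hodgkin lines the difference was -3.89 ± 0.60 log2 (SE, 2 lines against 3, adjusted p = 0.117) and was not called. HDLM2 was -2.61 ± 0.34 log2 from the other lines (SE, adjusted p = 0.000252). HDLM2, L540, Reh and Namalwa lay in the range of background and have no order among them, and the lowest single array was Reh replicate 2.

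MEIS2, a relative of MEIS1, spanned 4.10 log2. The Reh arrays had 8.37 (replicate 1) and 3.80, while SU-DHL-4 had 10.19, and its F test was not called (adjusted p = 0.103). KDM2B, a protein of CpG islands that brings Polycomb complexes to DNA, was highest in KM-H2 at 12.05 and 11.90 log2 (2.09 ± 0.13 above the others, SE, adjusted p = 1.85e-06). It was lowest in L428 (8.59) and L1236 (8.66). HOTAIR, a noncoding RNA that lies between HOXC11 and HOXC12 in the RefSeq table (GRCh38.p14), was highest in KM-H2 at 7.57 and 7.18 log2, 3.40 ± 0.23 above the others (SE, adjusted p = 2.94e-06). No other array of HOTAIR exceeded 5.34, so KM-H2 was highest for it as for HOXC13. CBX7, a Polycomb protein that reads a repressive histone mark, was highest in HDLM2 at 8.90 and 9.78 log2, 2.54 ± 0.21 above the others (SE, adjusted p = 1.42e-05). CBX2, another such protein, was highest in Reh at 9.56 and 10.24 log2, 1.62 ± 0.18 above the others (SE, adjusted p = 0.00015), and lowest in HDLM2 (7.37). Reh was the line with the most HOX genes called lower, while HDLM2, where CBX7 was highest, had with L1236 the most called higher. Whether any of these regulators bears on the HOX values was not tested.

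**Figure D5:**
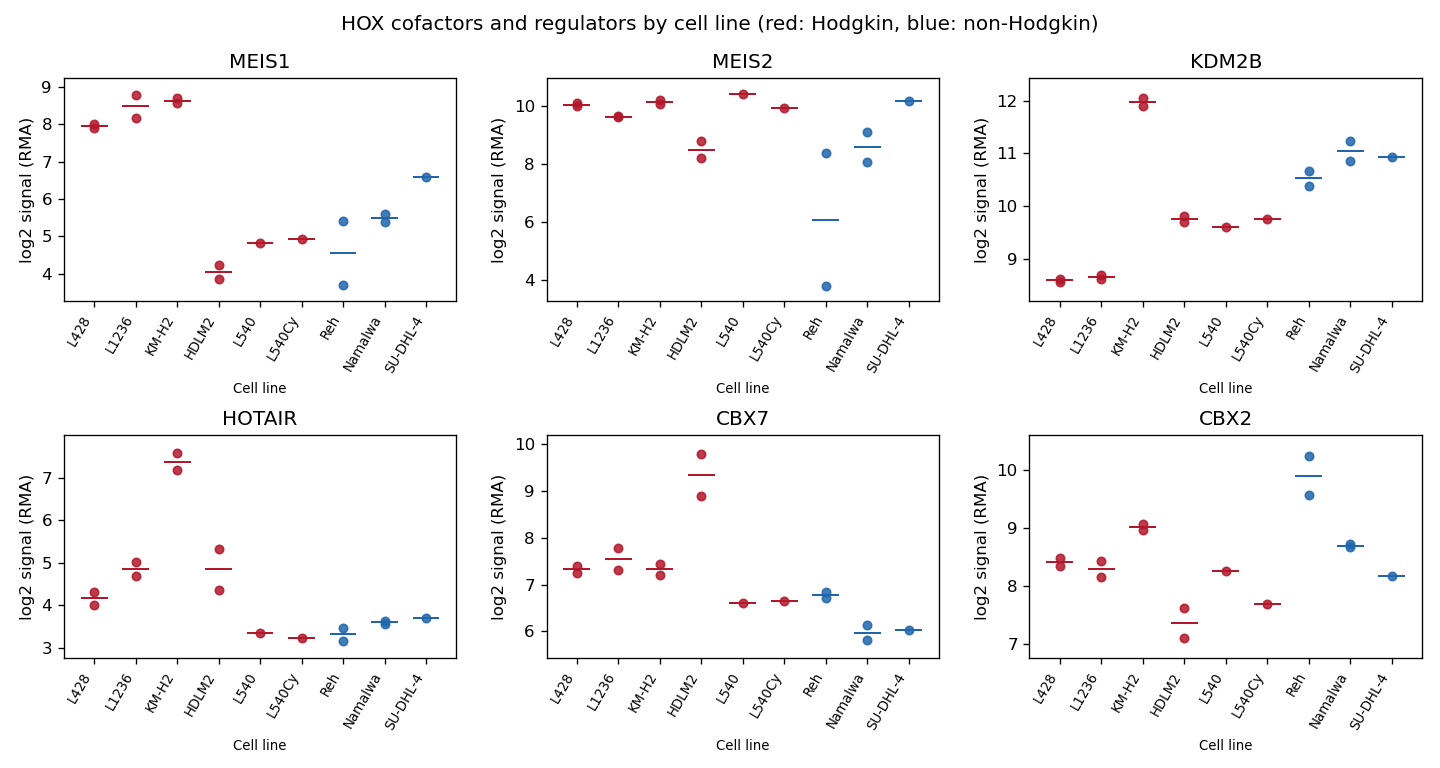
Points are the log2 RMA signals of single arrays for MEIS1, MEIS2, KDM2B, HOTAIR, CBX7 and CBX2 in each cell line, with line means as bars, red for Hodgkin and blue for non-Hodgkin lines. MEIS1 is high in L428, L1236 and KM-H2, KDM2B and HOTAIR are highest in KM-H2, CBX7 in HDLM2 and CBX2 in Reh.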

How the data were processed

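Total RNA of 9 cell lines was measured on 15 arrays of 54675 probe sets. The deposited values are log2 signals made by the authors with RMA, per the submitters' processing notes; neither the software nor its settings is given in the sources used here, and depth does not apply, so the number of arrays limits the precision. RMA compresses differences near background. The 62 control probe sets, 1801 probe sets with several gene symbols (3 of HOX genes among them) and 11721 with none were left out. The rest were matched to RefSeq (GRCh38.p14; 41037 of 41091), and the probe set with the highest mean stood for each of 19735 genes.

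Two-sided fits were made with limma 3.58.1 (R 4.3.3; lmFit, eBayes), with p-values adjusted over all genes by Benjamini-Hochberg and called under 0.05. Hodgkin lines were compared on line means. Contrasts of single lines used all 15 arrays with 1 mean per line and 6 residual degrees of freedom. Values in every array were given for HOX genes raised in a line or called between the groups, and of regulators the 6 with the widest span were named. The fits were tested on simulated data. The members and gene lists were chosen with earlier results of these data known. Alternatives changed the probe set rule, a filter on dim genes, the scaling, the variance model, the unit of replication and the arrays used; leaving out Namalwa replicate 2, the raised pairs in non-Hodgkin lines without single arrays and the fit of 12 numbered arrays without their number were chosen after seeing the data.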

Additional observations from a re-analysis of the deposited data

Results flagged for a closer look

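In 10 of 28 HOX genes, 1 of the 5 Hodgkin lines of origin stood far from the other 4, with a gap to its nearest neighbour of over 0.71 of the whole range. Chance gives this in about 1 of 20 groups, and 10.4% of all genes showed it. L1236 was the high line for HOXD4 (6.96 log2, next 4.97), HOXD10 (5.76, next 4.51), HOXD11 (7.07, next 4.78) and HOXD13 (8.15, next 5.42). L540 was the high line for HOXB2 (7.11 log2, next 5.15) and HOXA2 (4.06, next 3.74), the latter within the range of background. KM-H2 was the high line for HOXC13 (6.74 log2, next 4.57) and the low line for HOXB7 (4.98, next 9.95). HDLM2 was the high line for HOXB3 (8.78 log2, next 8.01) and L428 for HOXD8 (6.47, next 4.43).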

How the results depend on the processing

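Over 33 alternatives, 2332 values kept their side of the threshold or, for counts, stayed within 1.5 times, 78 lost a call, 25 counts moved by more, and 0 called values changed sign; the cause was not tested. With the mean of all probe sets 0 HOX genes were called lower in L540Cy (1 in the report). With only genes above 6 log2 in some array, which 24 of 28 HOX genes are, 0 were called higher in Reh (1), since HOXA2 drops out. Without L540Cy 3 were called higher in L540 (5). Counting 1 or 3 log2 above the median as raised gave 24 or 4 pairs (12). Leaving out 1 array or line at a time gave 18 to 24 HOX genes differing among lines, 31 to 46 calls higher in some line (35), 6 to 9 in HDLM2, 4 to 7 in KM-H2, 8 to 10 in L1236, 3 to 7 in L428, 4 to 7 in L540, 0 to 6 in Namalwa, 0 to 1 in Reh, 11 to 14 raised and 5 to 7 lowered pairs, 0 to 1 called higher between the groups, 0 to 1 between T and B cell derived lines and 0 to 1 lower in L540Cy. The replicate numbers were not taken to pair the samples. Deviations of same-numbered arrays correlated at -0.07 to 0.36 over 15 pairs of lines, with 10 over 0.1, so a shared effect of the number is possible. With the replicate block on the 12 numbered arrays 20 HOX genes differed among lines and HOXB9 was 3.58 log2 higher in Hodgkin lines (adjusted p = 0.00599; 0.00278 without the number), and counts per line were those without the block. The median of all genes between the groups was -0.04 log2 after quantile normalization and -0.02 after centring.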
